A study of Mus musculus with 8 samples.

Results

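The report concerns 10 chaperone genes, which encode proteins that fold other proteins and keep them folded: the stress-inducible HSP70 pair Hspa1a and Hspa1b, the constitutive HSP70 Hspa8, the cytosolic HSP90 genes Hsp90aa1 and Hsp90ab1, the HSP110 gene Hsph1, the HSP40 genes Dnajb1 and Dnaja1, and the mitochondrial chaperonin genes Hspd1 (HSP60) and Hspe1 (HSP10). They were taken by name, with gene symbols from GENCODE M21 on the mm10 mouse genome, as 10 of the 49315 genes in the count table. All 10 passed the filter on low counts, which left 17450 genes for testing. Bulk RNA sequencing had been carried out on the femoral shaft of 8 male C57BL6 mice aged 24 weeks, 4 wild-type mice (WT) and 4 mice labelled Girk3 -/- (KO), which lack the potassium channel subunit gene Kcnj9. The bone ends had been taken off and the marrow washed out before RNA extraction. No treatment is named for either genotype. Which part of Kcnj9 is deleted, and whether the WT mice were littermates, is not given in the sources used here.

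Chaperones work as a relay. HSP40 proteins bring unfolded proteins to HSP70 and drive its ATP cycle, HSP110 proteins exchange the nucleotide of HSP70, and HSP90 takes over late folding steps of kinases and steroid receptors. HSP60 and its lid HSP10 form a folding chamber for proteins imported into mitochondria. When unfolded proteins build up, heat shock factor HSF1 is freed from chaperones, forms trimers and binds heat shock elements, which are runs of the unit GAA in alternating orientation, and the inducible HSP70 genes are among its best known targets.

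Library totals ran from 30087749 to 36553713 counts, and the levels below are CPM values, counts relative to library sizes that were scaled by the trimmed mean of M-values. Kcnj9 itself had 6 to 23 counts in WT and 0 to 8 in KO libraries, too few to check the labels. Defining markers of osteoblasts (6 of 6 genes, together 8973 to 21790 CPM in WT and 10000 to 18230 in KO) and osteocytes (6 of 6 genes, 113.5 to 254 and 70.6 to 176 CPM) were present, and so were 10 of 10 skeletal muscle markers, at 65750 to 122400 CPM in WT and 102200 to 173100 in KO. WT replicate 4 had the lowest and KO replicate 4 the highest muscle sum, and these libraries stood at the opposite ends of the first principal component (33.5% of the variance). KO replicate 1 stood alone at the end of the second (24.9%). In RNA from a whole tissue, fewer cells of a type and less RNA per cell cannot be told apart.

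The inducible HSP70 genes lie close together on the minus strand of chromosome 17 (mm10), Hspa1a at chr17:34969190-34972156 and Hspa1b at chr17:34956436-34959238, and neither has an intron. Their open reading frames were 99.43% identical, and 47.07% of the 100-base words of the Hspa1a transcript recurred in Hspa1b, so that reads from such stretches cannot be assigned to either copy. Their sum is therefore given beside the separate values. The 250 bases upstream of their RefSeq starts (GRCm38.p6, minus strand, 5′ to 3′) are printed to show how far the duplication extends into the control region; capitals mark a heat shock element match in Hspa1a and, in Hspa1b, the 3 of 250 bases at which it differs from Hspa1a:
Hspa1a, chr17:34972157-34972406: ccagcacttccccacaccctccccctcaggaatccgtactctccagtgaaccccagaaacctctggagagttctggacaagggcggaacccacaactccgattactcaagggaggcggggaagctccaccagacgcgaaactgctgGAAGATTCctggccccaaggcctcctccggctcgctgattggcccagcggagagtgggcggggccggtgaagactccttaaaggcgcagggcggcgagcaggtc
Hspa1b, chr17:34959239-34959488: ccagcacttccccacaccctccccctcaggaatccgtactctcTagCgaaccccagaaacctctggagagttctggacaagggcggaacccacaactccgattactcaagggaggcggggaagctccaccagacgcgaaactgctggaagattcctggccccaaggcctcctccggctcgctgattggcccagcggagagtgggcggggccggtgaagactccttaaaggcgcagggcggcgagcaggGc
Both copies hold the match at the same distance, beginning 104 bases upstream of the start.

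Promoter windows of 7 of the 10 genes were found in the RefSeq table, the others being Hspa8, Hsp90aa1 and Hsp90ab1. The letters GAANNTTC and TTCNNGAA, each its own reverse complement and so the same on both strands, stand for 2 adjoining heat shock units; matches may overlap. The 30 bases around the matches of the other genes are shown because they differ in the number of units, with matched bases in capitals:
Hspe1, chr1:55088053-55088082, plus strand: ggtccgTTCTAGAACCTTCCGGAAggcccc
Dnaja1, chr4:40722333-40722362, plus strand: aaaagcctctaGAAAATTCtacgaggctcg
Hsph1, chr5:149636351-149636380, minus strand: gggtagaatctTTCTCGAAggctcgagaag
The Hspe1 window held 18 matched bases, 89 to 72 bases upstream of the start, made of 3 overlapping 2-unit matches. Since Hspd1 and Hspe1 are transcribed away from each other, the same bases lie 144 to 127 upstream of an annotated Hspd1 start that is 216 bases from that of Hspe1. The window of the other annotated Hspd1 start, which lies inside the first bases of Hspe1, held no match. Dnaja1 had its match at 1 of 3 annotated starts, and none was found in the other Dnaja1 windows or in those of Dnajb1, which says only that these letters are not there. Among all 32851 promoter windows of this length, 12.84% held a 2-unit match (6.69% GAANNTTC and 7.17% TTCNNGAA), and 0.47% held 3 adjoining units, as the Hspe1 window and that of the Hspd1 start at 216 bases did. A match is a description of letters and not a binding site.

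The 10 genes spanned a wide range of abundance. Per kilobase of exon, WT bone held 464.3 ± 44.0 CPM of Hsp90ab1 (SD, n = 4), the cytosolic HSP90 that is expressed without stress, and 237.5 ± 34.8 of Hspa8, its HSP70 counterpart. Hspd1 (68.9 ± 5.62), the stress-responsive HSP90 gene Hsp90aa1 (62.4 ± 12.2) and Hspe1 (48.1 ± 3.84) followed, also in CPM per kilobase. Hsp90ab1 and Hspa8 overlapped with no neighbour in this order between WT libraries, whereas Hspd1 overlapped with Hsp90aa1 and Hsp90aa1 with Hspe1. Below them, without overlap, came Hsph1 (20.3 ± 4.46), Dnaja1 (12.4 ± 2.175), Dnajb1 (10.04 ± 2.58), Hspa1b (6.67 ± 6.33) and Hspa1a (6.22 ± 4.70), each overlapping the next. The constitutive members were thus far above the inducible pair, and the inducible pair had SDs close to their means already in WT bone. The lengths were merged exons of all annotated transcripts, 4301 bases for Hspa8 and 1474 for Hspe1. Their longest protein-coding transcripts have 2394 and 774 bases. For Hsph1 and Dnaja1 the merged exons have 7266 and 8629 bases, and the transcripts 3802 and 5622. The order among the 5 most abundant genes therefore depends on the length used. So do the overlaps, also among the less abundant genes.

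No chaperone among the 10 passed the genotype test (edgeR's quasi-likelihood test, Benjamini-Hochberg adjusted p under 0.05 over 17450 genes), against 0.0115% of all genes, that is 2, Ifi202b and Ifi213. DESeq2 and limma-voom also called 0 of the 10, while they called 6.48% and 4.02% of all genes. DESeq2 gave no p-value for Hspa1b, so its result does not cover that gene. At an unadjusted p under 0.05, 2 of 10 were higher in KO by edgeR (9.59% of all genes) and 0 lower (8.59%); these were Hspd1 and Hspe1. The log2 fold changes, KO minus WT, were positive for 9 of 10 genes with a median of 0.30, beside -0.01 over all genes. Without KO replicate 1 they were positive for 4 of 10 with a median of -0.15, beside -0.02 over all genes, so that the sign of the group as a whole rested on that library. In that fit 0 of 10 were called (0.0113% of all genes), with 1, Hspe1, higher at an unadjusted p under 0.05 (7.57%) and 0 lower (6.55%).

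**Figure D1:**
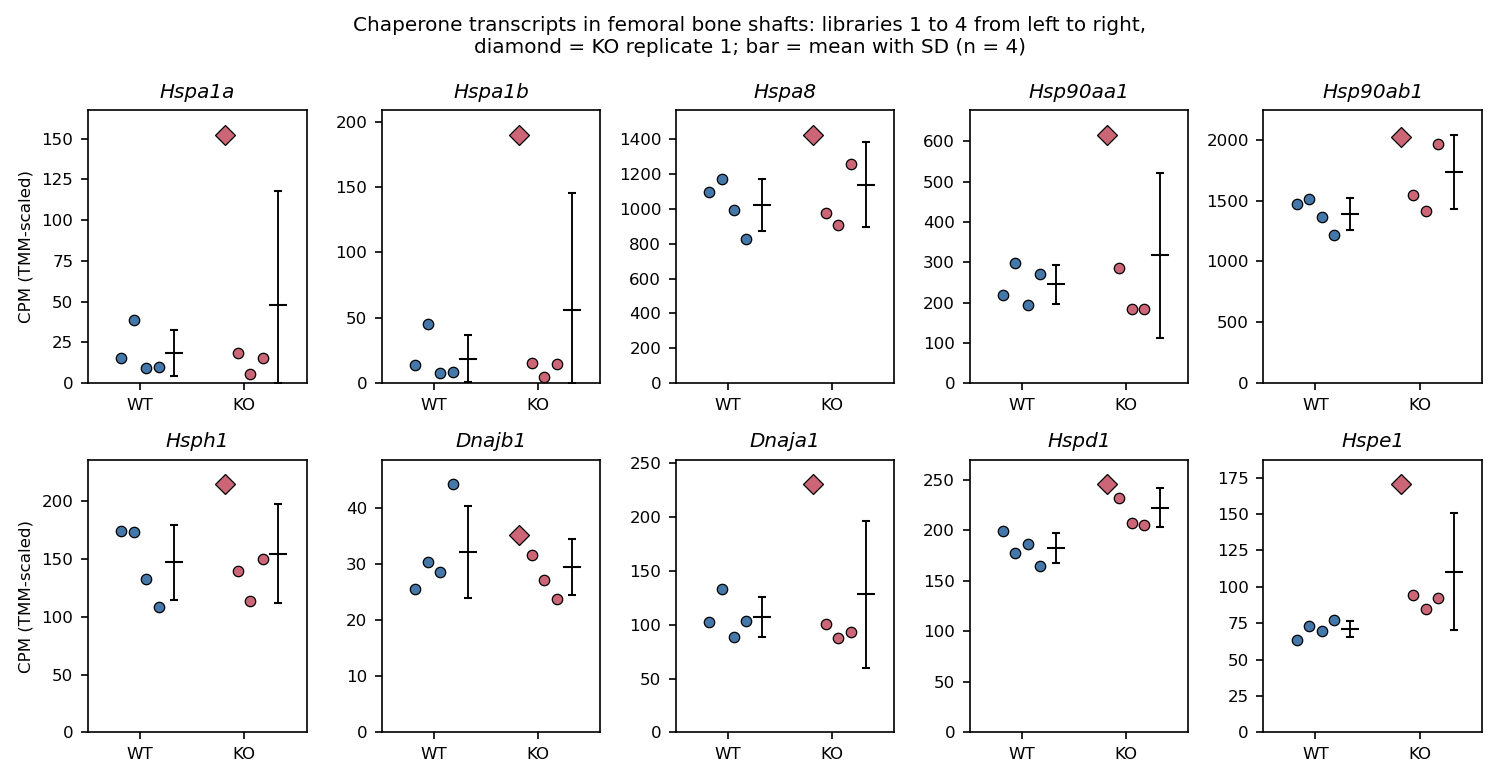
CPM (linear axes from 0) of the 10 chaperone genes in the 4 WT and 4 KO libraries, replicates 1 to 4 from left to right, with the mean and SD beside each group; the lower SD bar is cut at 0 for Hspa1a and Hspa1b. KO replicate 1 (diamond) is the highest library for every gene but Dnajb1, and WT and KO points do not overlap for Hspd1 and Hspe1.

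The inducible HSP70 pair was dominated by KO replicate 1. Hspa1a stood at 15.6, 38.9, 9.48 and 9.83 CPM in WT replicates 1 to 4 and at 152.1, 18.4, 5.27 and 15.1 CPM in KO replicates 1 to 4. Hspa1b stood at 14, 44.9, 7.49 and 8.32 CPM in WT and at 189.7, 15.7, 4.61 and 14.3 CPM in KO. In both genes KO replicate 1 was far above all other libraries, WT replicate 2 was second, KO replicate 3 was lowest, and the other 5 libraries lay between; the genotypes overlapped.

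For the sum of both copies, WT libraries held 29.6, 83.9, 17.0 and 18.1 CPM and KO libraries 341.8, 34.1, 9.89 and 29.3 CPM, in replicate order. KO replicate 1 was thus 13.99 times the mean of KO replicates 2 to 4 (24.4 ± 12.8, SD, n = 3) and 9.21 times the WT mean (37.1 ± 31.7, SD, n = 4). The fitted log2 fold change of the sum was 1.48 (SE 0.98, edgeR adjusted p = 0.464). Without KO replicate 1 it was -0.61 (SE 0.62, edgeR adjusted p = 0.702). Hspa1a taken alone gave 1.37 (SE 0.91) and without that library -0.52, and Hspa1b gave 1.59 (SE 1.04) and -0.70. Leaving out WT replicate 2, the second high library, gave 2.27 for the sum, limma-voom with library weights gave -0.55, and a marrow score (mean log2 CPM of erythroid, neutrophil and B cell markers) as a covariate gave 0.76. In numbers of reads the pair was well covered, with 315 to 10641 counts per library for the sum, and counting error was small beside the spread between libraries.

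Hspa8, which encodes HSC70, the everyday HSP70 of the cytosol, held 1096, 1170, 995.8 and 824.6 CPM in WT and 1424, 974.7, 905.6 and 1256 CPM in KO replicates 1 to 4. KO replicates 1 and 4 were the highest and WT replicate 4 the lowest, and the groups overlapped. The log2 fold change was 0.16 (SE 0.20, edgeR adjusted p = 0.734). It was 0.03 without KO replicate 1, 0.02 with a muscle score (mean log2 CPM of the muscle markers) as a covariate and 0.02 without both libraries at the ends of the muscle range, WT replicate 4 and KO replicate 4. Of the 100-base words of the Hspa8 transcript, 63.44% recurred in another annotated gene, chiefly the predicted gene Gm15459, and its exons contain 3 small nucleolar RNA genes, so its level is uncertain to the extent that shared reads were dropped.

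Hsp90ab1 showed the same order of libraries at its upper end. It stood at 1472, 1515, 1363 and 1219 CPM in WT and at 2024, 1543, 1412 and 1963 CPM in KO. KO replicates 1, 2 and 4 lay above all WT libraries and KO replicate 3 within them. Its log2 fold change was 0.32 (SE 0.19, edgeR adjusted p = 0.405), and 0.23 without KO replicate 1; with the muscle score as a covariate it was 0.21.

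Hsp90aa1 encodes the stress-responsive form of HSP90. Its levels were 217.4, 299.1, 194.4 and 270.5 CPM in WT and 615.6, 284.6, 184.7 and 184.7 CPM in KO. KO replicate 1 was 2.82 times the mean of the other KO libraries, and KO replicates 3 and 4 were the lowest of all 8. KO minus WT was 0.37 in log2 units (SE 0.37, edgeR adjusted p = 0.646) and became -0.17 without KO replicate 1. It was 0.65 with the muscle score as a covariate, 0.61 without WT replicate 4 and KO replicate 4, 0.24 with the marrow score and 0.01 by limma-voom. Of the 100-base words of the Hsp90aa1 transcript, 47.55% recurred in another annotated gene, chiefly Gm12346, so a part of its reads is uncertain.

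Hsph1, the HSP110 that reloads HSP70 with ATP, stood at 174.4, 173.8, 133.1 and 108.4 CPM in WT and at 214.6, 139.4, 114 and 150 CPM in KO. KO replicate 1 was highest, with the other 3 KO libraries inside the WT range. Its fold change was 0.07 in log2 units (SE 0.22, edgeR adjusted p = 0.908) and turned to -0.13 without KO replicate 1 and to -0.013 on unscaled library totals.

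Among the HSP40 genes, Dnaja1, whose product hands substrates to HSC70, stood at 102.9, 133.3, 88.8 and 103 CPM in WT and at 230.2, 101.1, 87.7 and 93.6 CPM in KO. KO replicate 1 was 2.44 times the mean of the other KO libraries, each of which lay below at least 3 of the 4 WT libraries. The log2 fold change was 0.26 (SE 0.30, edgeR adjusted p = 0.702), and -0.19 without KO replicate 1. Exons of Dnaja1 overlap those of Smu1 on the opposite strand by 608 bases, and whether reads were counted by strand is not given in the sources used here. Of the 100-base words of the Dnaja1 transcript, 24.04% recurred in another annotated gene, chiefly Gm15542.

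Dnajb1, the HSP40 partner of inducible HSP70 and itself a classical heat shock gene, did not follow the pair. It stood at 25.5, 30.4, 28.6 and 44.2 CPM in WT and at 35.1, 31.7, 27.1 and 23.8 CPM in KO. The highest library was WT replicate 4 and the lowest KO replicate 4, the ends of the muscle range in reverse. KO minus WT was -0.13 in log2 units (SE 0.19, edgeR adjusted p = 0.766), -0.22 without KO replicate 1 and 0.15 without WT replicate 4 and KO replicate 4; with the muscle score as a covariate it was 0.20.

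**Figure D2:**
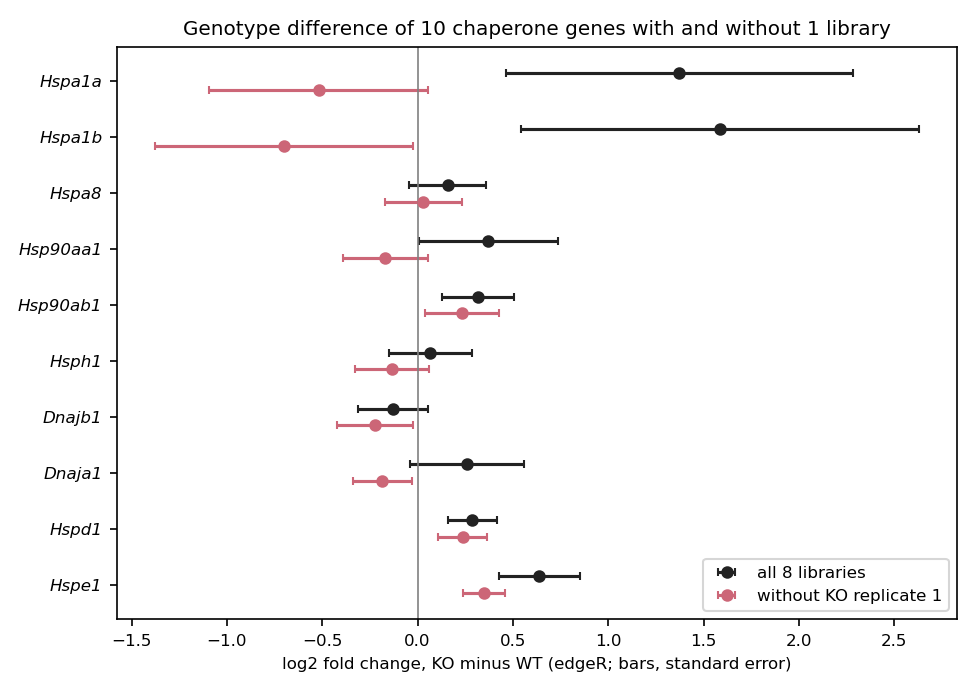
Log2 fold change, KO minus WT, of each chaperone gene from edgeR with all 8 libraries (black) and without KO replicate 1 (red); bars are standard errors. Hspa1a, Hspa1b, Hsp90aa1, Hsph1 and Dnaja1 move from the positive to the negative side, while Hspd1 and Hspe1 stay positive at 0.24 and 0.35.

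On scaled library sizes, the mitochondrial chaperonin pair was the part of the group in which WT and KO libraries did not overlap. The scaling factors were furthest apart in WT replicate 4 (1.179) and KO replicate 4 (0.83). Relative to unscaled totals, the genotypes overlapped for both genes. Hspd1 had 5416 of 31762643 counts in KO replicate 4 and 5535 of 30087749 in WT replicate 3. Hspe1 had 2442 counts in KO replicate 4 and 3317 of 36553713 in WT replicate 4. Hspd1, which encodes the HSP60 barrel, stood at 199.5, 177.8, 186.8 and 164.3 CPM in WT (182.1 ± 14.8, SD, n = 4) and at 245.3, 231.6, 206.9 and 205.3 CPM in KO (222.3 ± 19.5, SD, n = 4). Hspe1, which encodes the HSP10 lid, stood at 63.7, 73.2, 69.8 and 77.1 CPM in WT (70.9 ± 5.67, SD, n = 4) and at 170.3, 94.2, 84.6 and 92.6 CPM in KO (110.4 ± 40.1, SD, n = 4). All 4 KO libraries lay above all 4 WT libraries for both genes, as for 7.33% of all genes, and no member had all KO libraries below (5.78% of all genes).

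For Hspd1 the difference was small in every KO library, and for Hspe1 most of the KO spread came from KO replicate 1. The log2 fold change was 0.29 for Hspd1 (SE 0.13, unadjusted p = 0.0462, edgeR adjusted p = 0.267) and 0.64 for Hspe1 (SE 0.21, unadjusted p = 0.0132, edgeR adjusted p = 0.163). Without KO replicate 1, Hspe1 was 0.35 (SE 0.11, edgeR adjusted p = 0.232) and Hspd1 0.24 (SE 0.13, edgeR adjusted p = 0.443). On unscaled library totals, Hspd1 was 0.20 (edgeR unadjusted p = 0.183) and Hspe1 0.54 (edgeR unadjusted p = 0.0525). There, 0 of the 10 chaperones were higher at an unadjusted p under 0.05 (4.82% of all genes) and 0 lower (11.3%). The genotype labels were permuted exactly, in all 70 arrangements and on both sides. Each gene gave permutation p = 0.0286, the smallest that 4 against 4 libraries allow, with no adjustment over genes. Groups that do not overlap always reach this value, so it only restates the non-overlap. That held for 7.33% of all genes with KO higher and 5.78% with KO lower. The other chaperones gave permutation p-values of 0.114 to 0.886. Both genes are on chromosome 1, as is Kcnj9, at a distance of 117 Mb.

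Hspe1 is short, with 1474 exonic bases, and short genes as a class were higher in KO libraries. The median log2 fold change fell along the deciles of exon length from 0.21 in the shortest to -0.19 in the longest, and was 0.20 in the decile of Hspe1 and 0.06 in that of Hspd1. After the trend with exon length and GC content had been removed from each library, Hspe1 was 0.50 (SE 0.18, edgeR adjusted p = 0.258) and Hspd1 0.23 (SE 0.13, edgeR adjusted p = 0.45). In the annotation, 112 exonic bases of Hspd1 and Hspe1 overlap on opposite strands, and 26.94% and 22.37% of their 100-base words recurred in other annotated genes, for Hspd1 chiefly in Hspd1-ps3, so a part of their reads is uncertain.

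KO replicate 1 had been named together with these genes as the library to set apart, with earlier results of these data known. It was set against KO replicates 2 to 4 to describe how that library differed. With 1 library there is no test. Because the library was singled out for these genes, the shares of all genes below give a scale and no support. All 10 chaperones were higher in it, with a median log2 difference of 0.80 beside 0.01 over all genes. Hspa1b was 4.22 log2 units above the mean of the other KO libraries, with 0% of the 17450 genes higher, and Hspa1a 3.74, with 0.0172% higher. Hsp90aa1 followed at 1.53, Dnaja1 at 1.29 and Hspe1 at 0.91, then Hsph1 at 0.68, Hspa8 at 0.46, Dnajb1 at 0.36, Hsp90ab1 at 0.32 and Hspd1 at 0.20. Thus 4 of 10 exceeded 1 log2 unit, against 3.66% of all genes, and 9 of 10 had their highest value of all 8 libraries there, against 19.6%; Dnajb1 was the exception. For 4 of 10, namely Hspa1a, Hspa1b, Hspe1 and Dnaja1, its gap to the next KO library exceeded Dixon's 95% limit, as for 1.4% of all genes.

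The stress-responsive forms Hspa1a, Hspa1b and Hsp90aa1 thus stood further above their mates than the constitutive Hspa8 and Hsp90ab1. Dnajb1, also a heat shock gene, did not. Its 0.36 lay between Hspa8 (0.46) and Hsp90ab1 (0.32). Outside the 10, 14 of 16 other genes listed as HSF1 targets were higher in KO replicate 1 than in its mates (51.1% of all genes). Their median difference was 0.42, and 12 of 16 had their highest value of all 8 libraries there (19.6% of all genes). In WT replicates 1 and 2, 13 of 16 each were above the mates, with medians of 0.16 and 0.12. Hspb1, the small heat shock protein HSP27, stood at 522.7 CPM in KO replicate 1 and at 114.4 to 225.5 in the other libraries. The ER chaperones Hspa5 (BiP) and Hsp90b1 (GRP94), the latter chosen after its values were seen, stood at 597.1 and 612.7 CPM, with the other libraries at 229.5 to 353.2 and 228.9 to 364.9. The cold-inducible RNA-binding protein genes Rbm3 and Cirbp were lower than in the mates, with log2 differences of -0.27 and -0.29. Both genes were also below the mates in WT replicates 1 and 2, with medians of -0.31 and -0.23.

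Other RNA was high in KO replicate 1 as well, though for several marker lists other libraries stood as high. Neutrophil markers summed to 7136 CPM there, against 1506 to 5255 in WT and 755.6 at the lowest in KO, with 7 of 7 over 1 log2 unit above the mates. KO replicate 3 and WT replicate 4 also stood above their mates for 7 of 7, with medians of 1.17 and 1.29 beside 1.43 in KO replicate 1, and KO replicate 4, at -2.86, lowered the mean of the KO mates. Adipocyte markers summed to 798.8 CPM, against 255.2 to 348.2 in WT and 321.4 at the lowest in KO, with 4 of 4 genes higher. Markers of osteocytes (6 of 6 higher, median 0.61), osteoblasts (6 of 6, 0.35), osteoclasts (5 of 5, 0.37) and B cells (6 of 7, 0.60) were above the mates as well. Osteocyte medians were also 0.61 in KO replicate 3 and 0.74 in WT replicate 4, and -1.04 in KO replicate 4. WT replicate 4 stood at 0.75 for osteoclasts and 0.86 for B cells, and WT replicate 1 at 0.36 for osteoblasts. Endothelial markers were below the mates in KO replicate 1 (1 of 4 higher, median -0.23). Skeletal muscle markers were near their mates, with a median difference of -0.05, and the 10 immediate early genes had a median of -0.14. Their part in the chaperone values was not tested.

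**Figure D3:**
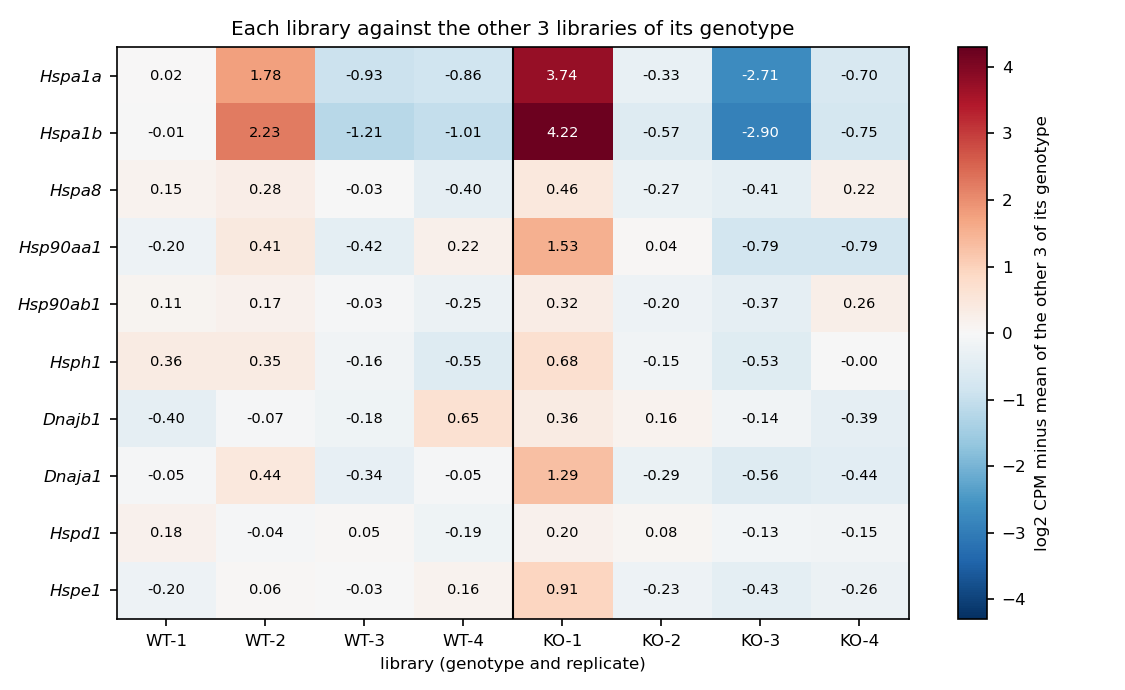
Log2 CPM of each chaperone gene in each library minus the mean of the other 3 libraries of its genotype (colour scale from blue, lower, to red, higher; values printed). The KO replicate 1 column is above 0 for all 10 genes and reaches 4.22 for Hspa1b, and the KO replicate 3 column is below 0 for all 10.

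The same measure in the other libraries shows how much the group varied without KO replicate 1. In WT replicate 2, 8 of 10 chaperones were above the other WT libraries, with a median of 0.32, and the sum of Hspa1a and Hspa1b was 2.003 log2 units above. KO replicate 3 was below its mates for all 10, with a median of -0.48, which includes the effect of KO replicate 1 on the mean of those mates. The other 5 libraries had medians between -0.32 and 0.0024. Each genotype thus had 1 library well above its mates in inducible HSP70, at a lower level in WT.

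Genes whose log2 CPM ran most like the HSP70 pair over the 8 libraries were sought among 14663 genes with at least 1 CPM on average. The 5 most alike to the sum of Hspa1a and Hspa1b were Slc9a3r2 (Pearson r of 0.98), Tcim (0.96), Tagln3 (0.95), Nle1 (0.95) and Stip1 (0.94), the last being the HOP protein that links HSP70 to HSP90. Stip1 stood at 184.2 CPM in KO replicate 1, at 117.3 to 146.2 in WT and at 109.1 to 131.5 in the other KO libraries. Nle1 ranged from 18.2 to 42.7 CPM in WT and was 73.2 CPM in KO replicate 1.

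The genes most alike to the sum of Hspd1 and Hspe1 were the non-coding Gm14010 (r of 0.99), Fstl1 (0.98), Dbi (0.97), Rrp9 (0.97) and Ccdc58 (0.97). Dbi, the acyl-CoA binding protein, stood at 63.2 to 73.1 CPM in WT and at 93.0 to 158.6 in KO. These likenesses describe 8 shared libraries, KO replicate 1 being an extreme in both patterns, and they were picked as the highest of many.

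Other chaperone genes were taken from lists of the pathway. The cytosolic chaperonin TRiC, an 8-subunit chamber for actin and tubulin, and prefoldin, which delivers substrates to it, made up 1 list of 14 genes. All 14 genes had a positive log2 fold change (48.6% of all genes; 13 of 14 with the muscle score or by limma-voom) with a median of 0.34, and 11 of 14 had KO libraries wholly above WT (7.33% of all genes). None passed edgeR's adjusted threshold, with 12 of 14 at an unadjusted p under 0.05 (9.59% of all genes); DESeq2 called 5 of the 14 (6.48% of all genes) and limma-voom 3 (4.02%). Cct4 was at 95.0 ± 2.13 CPM (SD, n = 4) in WT and 131.6 ± 8.63 in KO, which is 0.47 on the log2 scale (SE 0.10, edgeR adjusted p = 0.0837). Pfdn6 was at 39.7 ± 3.22 and 51.0 ± 3.31 CPM, or 0.36 on the log2 scale (edgeR adjusted p = 0.123). Without KO replicate 1 all 14 were again positive, with a median of 0.29 and 10 at an unadjusted p under 0.05 (7.57% of all genes). With the length and GC trend removed the median was 0.31. The number higher at an unadjusted p under 0.05 depended on the setting. It was 2 of 14 on unscaled library totals (4.82% of all genes). With the replicate number as a block it was also 2 of 14 (5.05% of all genes). All 14 stayed positive in both settings.

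**Figure D4:**
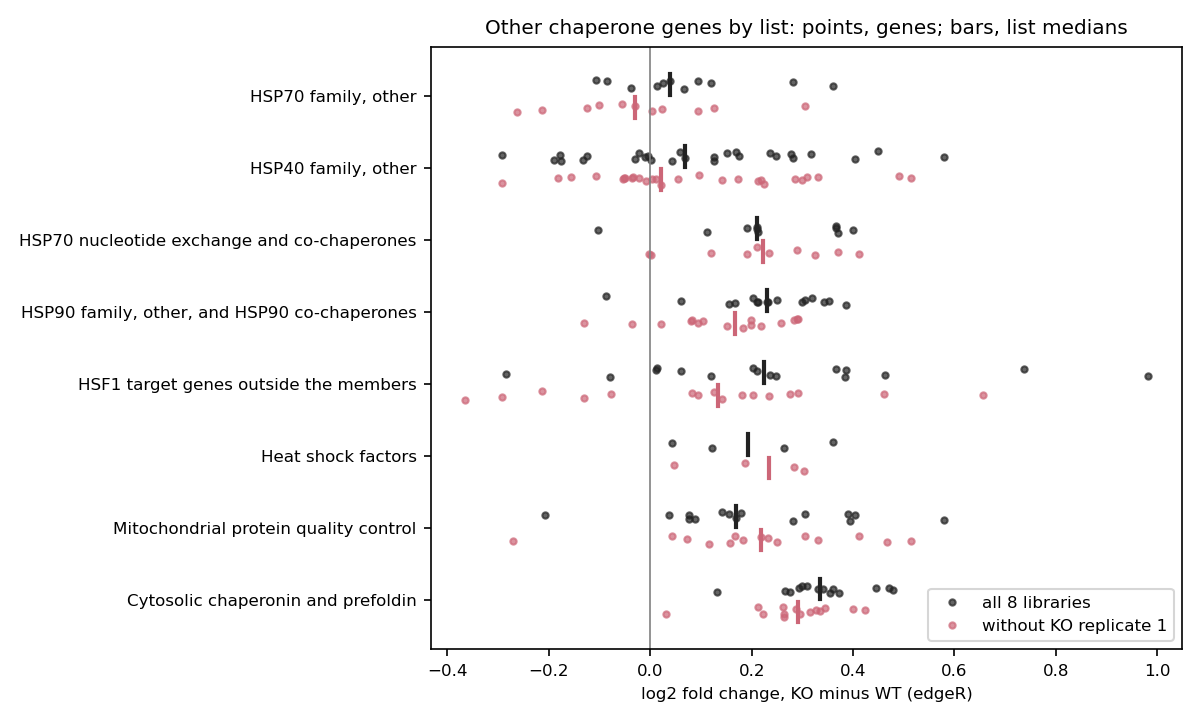
Log2 fold change, KO minus WT, of the other chaperone and heat shock genes by list, one point per gene, with all 8 libraries (black) and without KO replicate 1 (red); upright bars are list medians. The cytosolic chaperonin and prefoldin genes all lie above 0, with medians of 0.34 and 0.29, and the other HSP70 genes centre on 0.04 and -0.03.

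In the mitochondrial quality control list, which holds the import and folding partners and proteases of the HSP60 compartment, 14 of 15 genes were positive (48.6% of all genes) with a median of 0.17 and 0 were called by edgeR. At an unadjusted p under 0.05, 5 of 15 were higher (9.59% of all genes), and DESeq2 called 2 (6.48%) and limma-voom 1 (4.02%). The median moved with the libraries at the ends of the muscle range: it was 0.096 without WT replicate 4, 0.073 without WT replicate 4 and KO replicate 4, and 0.11 with the muscle score as a covariate, where 11 of 15 were positive. Grpel1, which exchanges the nucleotide of mitochondrial HSP70, had 49.0 ± 2.58 CPM (SD, n = 4) in WT and 64.4 ± 3.07 in KO, which is 0.39 on the log2 scale (SE 0.10, edgeR adjusted p = 0.0914). Dnajc15, an HSP40 of the inner membrane, had 33.9 ± 5.18 and 50.6 ± 6.02 CPM, or 0.58 on the log2 scale (edgeR adjusted p = 0.0914). For both genes the KO libraries lay above the WT libraries, and without KO replicate 1 the values were 0.41 and 0.51. Mitochondrial HSP70 itself, Hspa9, had 336.2 ± 65.8 and 408.6 ± 24.6 CPM with overlap (log2 fold change 0.28, edgeR adjusted p = 0.409).

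The nucleotide exchange factors and co-chaperones of HSP70 were positive for 9 of 10 genes, with a median of 0.21, 5 of 10 without overlap (7.33% of all genes) and 0 called by edgeR. At an unadjusted p under 0.05, 3 of 10 were higher (9.59% of all genes), and DESeq2 called 3 (6.48%) and limma-voom 1 (4.02%). Hspbp1 (log2 fold change 0.37, edgeR adjusted p = 0.106) and Sil1, the exchange factor of BiP in the ER (0.37, edgeR adjusted p = 0.129), had the smallest p-values. The other HSP90 genes and co-chaperones were positive for 15 of 16, with a median of 0.23 and 0 called by edgeR, DESeq2 or limma-voom (4 at an unadjusted p under 0.05 by edgeR, against 9.59% of all genes); Cdc37, which brings kinases to HSP90, stood at 111.9 ± 9.71 and 138.3 ± 5.33 CPM (SD, n = 4) without overlap. The other HSP40 genes (17 of 27 positive, median 0.07) and the other HSP70 genes (8 of 11, median 0.04) were nearer to the median of all genes, with 0 called by edgeR in either list (3 and 0 higher at an unadjusted p under 0.05, against 9.59% of all genes); DESeq2 called 1 of the 27 and 0 of the 11 (6.48% of all genes), limma-voom 0 of both (4.02%). On unscaled library totals, which moved the median of all genes to -0.11, these medians were -0.02 and -0.04. The medians of the HSP90 list (0.14), the HSP70 exchange factors (0.12), the mitochondrial list (0.078) and the chaperonin and prefoldin genes (0.24) stayed positive. Fewer genes were then higher at an unadjusted p under 0.05 (4.82% of all genes). They were 0 of the HSP90 list, 2 of the HSP70 exchange factors and 3 of the mitochondrial list.

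Among heat shock factors, 4 of 5 listed genes were tested, Hsf5 having at most 7 counts, and all 4 had positive fold changes with a median of 0.19 and 0 called by edgeR, DESeq2 or limma-voom (1 higher at an unadjusted p under 0.05 by edgeR, against 9.59% of all genes). That median was 0.075 without WT replicate 4, 0.0096 without WT replicate 4 and KO replicate 4, and -0.042 with the muscle score, where 2 of 4 were positive. Hsbp1, which binds HSF1 trimers, was at 111.4 ± 10.9 CPM (SD, n = 4) in WT and 143.1 ± 13.99 in KO, and Hsf2 at 20.0 ± 3.75 and 24.0 ± 2.62. Of the HSF1 targets outside the 10 genes, 14 of 16 were positive with a median of 0.22, and 11 of 16 without KO replicate 1 with a median of 0.13; 0 were called by edgeR (3 higher at an unadjusted p under 0.05, against 9.59% of all genes), and DESeq2 and limma-voom called 1 each (6.48% and 4.02% of all genes). Hspb1 had 0.98 (edgeR adjusted p = 0.184), and 0.46 without KO replicate 1.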

How the data were processed

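Raw counts per gene were deposited by the authors for 4 WT and 4 KO libraries; bcl2fastq 2.17, STAR 2.5.2b, featureCounts, Subread 1.5.2 and the build mm10 are named in the submitters' processing notes, with strand setting and treatment of multi-mapping reads not given in the sources used here. Symbols and exon lengths came from GENCODE M21 (48970 of 49315 IDs matched). The counts were tested with edgeR 4.0.16 (R 4.3.3; filterByExpr, trimmed mean of M-values, robust quasi-likelihood fit, genotype only, Benjamini-Hochberg over 17450 genes, threshold 0.05); log2 CPM used a prior count of 2. DESeq2 1.42.0, limma 3.58.1 (voom with library weights), other scalings and filters, the replicate number, muscle or marrow marker scores as covariates, removal of the exon length and GC trend, and leaving out libraries were the alternatives. The fits were tested on simulated data. There edgeR recovered 51 of 100 genes changed 2-fold and 93 of 100 changed 4-fold, with 12 false calls. DESeq2 recovered 64 and 97 with 48 false calls, and limma-voom 49 and 92 with 8. Depth was 30087749 to 36553713 counts per library. Shared 100-base words were counted over all GENCODE transcripts, and promoters came from RefSeq (GRCm38.p6). The 10 genes, the lists and the marker genes were chosen with earlier results of these data known. Named genes were the 10, in each list the called genes or otherwise those with the 2 smallest p-values, and the 5 genes most alike in pattern; leaving out libraries for the lists, and all settings for the contrast of KO replicate 1 and the summed HSP70 pair, were chosen after seeing the data. Protein sequences were not used here. A gene that the naming rule picks is not reported here.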

Additional observations from a re-analysis of the deposited data

Results flagged for a closer look

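In 5 of the 22 groups of 4 libraries examined (10 genes and the summed HSP70 pair, in WT and in KO), the highest library stood apart from the others by more than Dixon's 95% limit for the gap to the next library over the range. All 5 were KO replicate 1. Hspa1b in WT replicate 2 was just within the limit, at 44.9 CPM with 14 CPM in the next WT library. Hspa1a was at 152.1 CPM there, with 18.4 CPM in the next KO library, and Hspa1b at 189.7 CPM, with 15.7 next. Their sum was 341.8 CPM, with 34.1 next; it is not independent of its parts. Hspe1 was at 170.3 CPM, with 94.2 next, and Dnaja1 at 230.2 CPM, with 101.1 next. For normally distributed values, chance sets apart about 5% of such groups, counting any of the 4 libraries at either end. The limit was applied here to CPM without logs. Of all genes tested, 1.4% had KO replicate 1 standing apart at the upper end. That share covers 1 library and 1 end, so it cannot be read against the 5%. The groups share the same libraries, so the 5 are not separate observations.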

How the results depend on the processing

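None of the 10 chaperones was called under the 19 alternatives run for each; DESeq2 gave no adjusted p for Hspa1b or the summed HSP70 pair. Hspd1 (0.20 to 0.33), Hspe1 (0.35 to 0.77) and Hsp90ab1 (0.14 to 0.41) kept a positive log2 fold change in all of them, with adjusted p-values of 0.105 to 0.604, 0.0577 to 0.504 and 0.17 to 0.722. The median of the 10 genes in KO replicate 1 over its mates, 0.80, stayed between 0.72 and 0.88. Without KO replicate 1 the fold change reversed to -0.61 for the summed pair, -0.52 for Hspa1a, -0.70 for Hspa1b, -0.17 for Hsp90aa1, -0.13 for Hsph1 and -0.19 for Dnaja1. Leaving out libraries, the ranges were -0.61 to 2.27 for the pair, -0.52 to 2.04 for Hspa1a, -0.70 to 2.49 for Hspa1b, -0.17 to 0.61 for Hsp90aa1, -0.13 to 0.19 for Hsph1, -0.23 to 0.15 for Dnajb1 and -0.19 to 0.40 for Dnaja1. By limma-voom, which gives libraries that stand apart less weight, it was -0.55 for the pair, -0.52 for Hspa1a, -0.59 for Hspa1b, -0.072 for Hspa8, -0.21 for Hsph1 and -0.077 for Dnaja1. Hsph1 was also negative with library totals (-0.013), with the muscle score (-0.033), without WT replicate 4 (-0.059) and without WT replicate 4 and KO replicate 4 (-0.041); Dnajb1 was positive in the last 3 settings, at 0.20, 0.059 and 0.15. The causes were not tested.

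The count of all genes called was 2, and 2 to 4 on leaving out 1 library. It was 71 with no low-count filter, 55 with the muscle score, 1375 with the marrow score, 992 by DESeq2, 701 by limma-voom and 458 without WT replicate 4 and KO replicate 4. Library totals moved the median of all genes from -0.012 to -0.11. With the replicate number as a block it called 1 gene, and Hspe1 was 0.58 (adjusted p = 0.504) and the HSP70 pair 0.39. The numbers share no stated litter or day, the deviations of same-numbered libraries correlated at -0.187, -0.166, -0.247 and -0.568, and no library correlated best with its own number, so they were not taken as pairs.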
